A study of Mus musculus with 2 samples.

Results

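Mir431, Mir433, Mir127, Mir434, Mir432 and Mir136 are 6 microRNA genes of mouse chromosome 12 that are transcribed opposite the imprinted gene Rtl1. They were picked by gene symbol and position from the 2202 microRNA genes of the deposited tables, by a rule that uses no measured value. Short RNA was sequenced from the left cerebral cortex of 2 females aged 10 days, here animal 1 and animal 2. Both mice were B6CASTF1/J, first-generation hybrids of C57BL/6J and CAST/EiJ, untreated as far as the labels say, and they form a single group with no control condition. The labels number the females differently, although both carry the same donor entry, so they were taken as separate animals.

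The Dlk1-Dio3 region is imprinted, which means that a gene is read from the chromosome of only one parent. Rtl1 encodes a protein derived from a retrotransposon and is read from the paternal chromosome, while the microRNAs on the other strand come from the maternal one. A microRNA usually pairs with its targets through the seed, bases 2 to 8 of its mature form. The anti-Rtl1 microRNAs lie opposite their own target, pair with it over their whole length and are known to direct cutting of the Rtl1 messenger RNA in mouse. By the naming convention for F1 hybrids the mother of these mice was C57BL/6J, but the files do not separate the parental alleles.

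The mature forms are shown because each of them is the exact complement of a stretch of Rtl1. RefSeq (GRCm38.p6) holds a hairpin for each of the 6 genes and 11 mature forms in all, with only 1 form for Mir432. Capitals mark the seed, and sequences run 5′ to 3′.
miR-431-5p: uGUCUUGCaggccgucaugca
miR-431-3p: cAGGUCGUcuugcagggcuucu
miR-433-5p: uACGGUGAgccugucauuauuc
miR-433-3p: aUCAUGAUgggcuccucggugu
miR-127-5p: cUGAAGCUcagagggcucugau
miR-127-3p: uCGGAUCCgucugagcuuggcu
miR-434-5p: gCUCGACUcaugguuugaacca
miR-434-3p: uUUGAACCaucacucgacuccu
miR-432: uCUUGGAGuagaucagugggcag
miR-136-5p: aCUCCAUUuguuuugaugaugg
miR-136-3p: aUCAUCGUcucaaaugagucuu

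No seed of these forms was shared between genes, and 0 other genes among the 1738 mature entries of the RefSeq table carried any of the 11 seeds. The genes are therefore neighbours in place and not a seed family. None of the mature sequences was listed a second time under another gene. The deposited tables give 1 count per hairpin, so the 5p and 3p forms of a gene cannot be told apart.

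The hairpins lie within 4942 bases of the plus strand (mm10), in the order Mir431 (109590447 to 109590537), Mir433 (109591715 to 109591838), Mir127 (109592846 to 109592915), Mir434 (109594506 to 109594599), Mir432 (109594956 to 109595030) and Mir136 (109595327 to 109595388). Rtl1 runs the other way on the minus strand, from 109600330 to 109589193, and all 6 hairpins face the second and last exon of its annotated transcript, which spans 109589193 to 109595488. That transcript is 6358 bases long with coding sequence from base 148 to base 5379, and every hairpin faces coding sequence. Mir136 faces bases 163 to 224, shortly after the start codon, and Mir431 faces bases 5014 to 5104, near the end of the coding part. The gaps between neighbouring hairpins were 1177, 1007, 1590, 356 and 296 bases. Mir127, the gene with the most reads, faces bases 2636 to 2705, near the middle. The Rtl1 stretch that miR-127-3p pairs with is shown as the example of such a site, with the seed match in capitals.
Rtl1 site of miR-127-3p: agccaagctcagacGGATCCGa

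**Figure D1:**
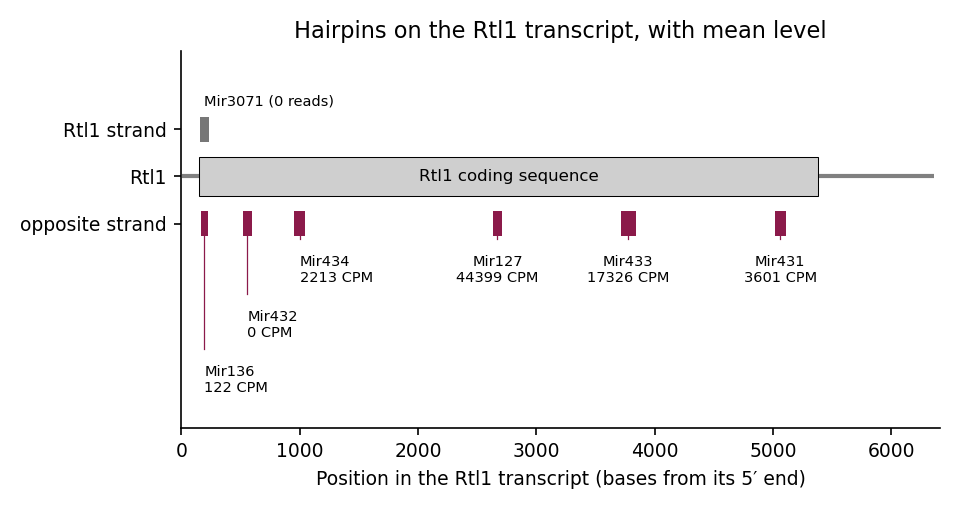
Positions of the 6 anti-Rtl1 hairpins (red) and of Mir3071 (grey) on the Rtl1 transcript, in bases from its 5′ end, with the mean CPM of each gene over both animals (n = 2). All hairpins face the coding sequence, and the genes near the middle and end of Rtl1 had more reads than those near its start.

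Each seed matches Rtl1 at the site that faces its own form, which follows from the position of the gene. Further matches lie outside the facing hairpin for 6 of the 11 forms. The 7-base match of the miR-434-3p seed, GGTTCAA, occurs 4 times in the Rtl1 transcript, of which 3 face the Mir434 hairpin and 1 lies elsewhere. The miR-434-5p match, AGTCGAG, and the miR-431-5p match, GCAAGAC, each occur 3 times, 2 of them facing the own hairpin and 1 elsewhere. The miR-432 match, CTCCAAG, also occurs 3 times, with 1 facing the hairpin and 2 elsewhere. The matches of miR-431-3p (ACGACCT) and miR-136-5p (AATGGAG) each occur 2 times, 1 of them elsewhere. For comparison, the longest transcripts of 815 other protein-coding genes of 6000 to 7000 bases were searched on the transcript strand, counting overlapping matches. At least 1 match was found in 24.5% of them for GGTTCAA, 8.22% for AGTCGAG and 33.6% for GCAAGAC. The shares were 56.0% for CTCCAAG, 13.3% for ACGACCT and 50.7% for AATGGAG. For the forms without a further match, the shares were 16.3% (miR-433-5p), 36.2% (miR-433-3p), 50.9% (miR-127-5p), 12.1% (miR-127-3p) and 20.4% (miR-136-3p). The share for miR-432 is also for at least 1 match, although 2 lie elsewhere in Rtl1. A match is a run of letters and no evidence of pairing.

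Some of the repeated matches lie in repeats inside the hairpins. In Mir434 a run of 13 bases, in capitals here, occurs at bases 33 and 57 of the hairpin, once in each arm. Among the 1005 hairpins of the RefSeq table, 1.29% hold a repeated run of at least that length.
Mir434 hairpin: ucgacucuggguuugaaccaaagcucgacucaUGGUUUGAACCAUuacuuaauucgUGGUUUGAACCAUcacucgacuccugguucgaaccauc
The longest repeat of Mir431 is the 10-base run in capitals, at bases 14 and 62, and 4.08% of hairpins hold a repeat of that length or more.
Mir431 hairpin: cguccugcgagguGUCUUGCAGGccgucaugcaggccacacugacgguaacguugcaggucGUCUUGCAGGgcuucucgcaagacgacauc
The tables hold reads that fit several positions in a separate row, outside the gene counts. Whether reads of Mir434 or Mir431 are among them was not tested.

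Depth and tissue were as follows. The microRNA genes took 3806078 reads of animal 1 and 2602935 of animal 2, or 33.5% and 30.4% of all reads. Reads that fit several positions made up 42.7% and 40.4% of all reads and enter no gene count. Levels, ranks and shares of counted reads leave them out. Levels are given as CPM, the reads of a gene scaled to a common total of 1000000 reads on microRNA genes. Detected means at least 10 CPM in each animal. Of 9 neuronal marker genes, 6 were detected, with a summed level of 40747 CPM in animal 1 and 41568 in animal 2. The 3 undetected ones were the Mir124a copies, with 1 to 13 reads each, and reads of genes with several copies can be missing from these counts. Oligodendrocyte (2 of 3 detected; 1187 and 1640 CPM), smooth muscle and pericyte (2 of 2; 3145 and 4524 CPM) and blood and microglial markers (3 of 3; 784 and 1100 CPM) were also present. Of 4 striated muscle markers, Mir1a-1, Mir1a-2 and Mir133a-1 had 0 reads and Mir206 was detected at 20.8 and 28.0 CPM, and liver Mir122 stood at 42.6 and 41.9 CPM. Choroid plexus Mir204 stood at 865 and 751 CPM. The Mir9 copies of neural precursors and neurons (2 of 3 detected) summed to 126 and 197 CPM. The erythroid markers Mir451a and Mir144 (0 of 2 detected) summed to 49.1 and 17.7 CPM.

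Mir127, Mir433, Mir431, Mir434 and Mir136 were detected, 5 of the 6 genes, against 13.9% of all microRNA genes. Together the members held 261914 reads in animal 1, or 6.88% of counted reads (exact Clopper-Pearson 95% interval 6.86 to 6.91). The number for animal 2 was 173113 reads, or 6.65% (6.62 to 6.68). The mean was 6.77% ± 0.163 (SD, n = 2). An SD of 2 animals rests on a single difference, and the intervals cover counting error only. In bulk tissue a level cannot tell fewer cells from less RNA per cell.

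Mir127 is the gene whose loss in mice impairs the placenta. It had 172202 reads in animal 1 and 113367 in animal 2, which is 45244 and 43554 CPM, a mean of 44399 ± 1195 (SD, n = 2). Its rank among all microRNA genes, by counted reads only, was 5 in both animals. Of the reads of the 6 genes, Mir127 alone held 65.7% in animal 1 (95% interval 65.6 to 65.9), and 65.5% (65.3 to 65.7) in animal 2.

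Mir433 had 65108 and 45669 reads, or 17106 and 17545 CPM in animals 1 and 2, a mean of 17326 ± 310.3 (SD, n = 2). It ranked 14 in both animals and held 24.9% and 26.4% of the reads of the 6 genes. Mir127 and Mir433 together thus account for most of the anti-Rtl1 reads.

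Mir431 is known from work on muscle and on axon growth. It had 13964 and 9197 reads, or 3669 and 3533 CPM, a mean of 3601 ± 95.8 (SD, n = 2), and ranked 53 in animal 1 and 49 in animal 2. Mir434, whose hairpin holds the long repeat, had 10105 and 4612 reads, or 2655 and 1772 CPM, a mean of 2213 ± 624 (SD, n = 2). It ranked 70 and 81. The animals thus stood further apart in Mir434 than in the 3 more abundant genes.

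Mir136 had 535 reads in animal 1 and 268 in animal 2, or 141 and 103 CPM, a mean of 122 ± 26.6 (SD, n = 2). It ranked 199 and 202 and held 0.204% and 0.155% of the reads of the 6 genes.

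Mir432 had 0 reads in both animals. A count of 0 allows up to 3 reads, which is 0.788 CPM in animal 1 and 1.15 CPM in animal 2. Against that limit in each library, Mir127 was at least 57401-fold higher in animal 1 and at least 37789-fold higher in animal 2. The limit covers counted reads only, and any Mir432 reads that fit several positions would be missing from it. Mir432 lies between Mir434 and Mir136, 356 bases from the former and 296 from the latter. It is shown here with its single listed mature form in capitals.
Mir432 hairpin: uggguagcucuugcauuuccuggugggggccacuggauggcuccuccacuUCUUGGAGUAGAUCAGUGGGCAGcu
A total of 1432 microRNA genes had 0 reads in both animals.

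**Figure D2:**
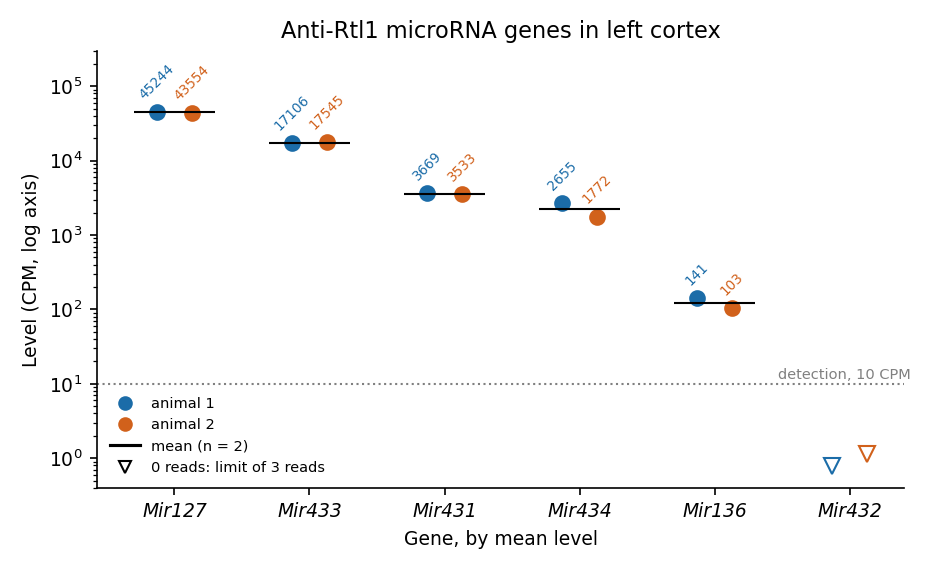
Level of each anti-Rtl1 gene in CPM (log axis) in animal 1 and animal 2, with the mean of both as a line (n = 2). Open triangles mark genes with 0 reads, drawn at the level of 3 reads, and the dotted line is the detection threshold of 10 CPM. The genes run from 44399 CPM (Mir127) to 0 reads (Mir432) in the same order in both animals.

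The order Mir127, Mir433, Mir431, Mir434, Mir136, Mir432 was the same in both animals, and no neighbours in it overlapped. Ratios between genes of 1 library do not depend on the scaling between libraries. Mir127 exceeded Mir433 2.64-fold in animal 1 (95% interval 2.62 to 2.67) and 2.48-fold in animal 2 (2.46 to 2.51). Mir433 exceeded Mir431 4.66-fold (4.58 to 4.75) and 4.97-fold (4.86 to 5.08). The ratio of Mir127 to Mir431 was 12.3 in animal 1 (12.1 to 12.5) and 12.3 in animal 2 (12.1 to 12.6), so these intervals overlapped.

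Mir434 and Mir136 shifted against the other 3 genes, within the same order. Mir431 exceeded Mir434 1.38-fold in animal 1 (1.35 to 1.42) and 1.99-fold in animal 2 (1.92 to 2.07). Mir433 exceeded Mir434 6.44-fold in animal 1 (6.31 to 6.58) and 9.90-fold in animal 2 (9.61 to 10.2). The ratio of Mir434 to Mir136 was 18.9 (17.3 to 20.6) and 17.2 (15.2 to 19.5), with overlapping intervals. Mir127 exceeded Mir136 322-fold in animal 1 (296 to 351) and 423-fold in animal 2 (375 to 479). Both genes thus stood lower in animal 2 against Mir127, Mir433 and Mir431. These intervals measure counting error within a library and not the spread among animals.

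The hairpins differ in length, base composition and predicted fold. Lengths ran from 62 bases (Mir136) to 124 (Mir433), and GC content from 40.3% (Mir136) to 60.4% (Mir431). The minimum free energy predicted by RNAfold per base was -0.50 kcal/mol for Mir127, -0.48 for Mir431, -0.45 for Mir136, -0.40 for Mir434, -0.36 for Mir433 and -0.32 for Mir432. Mir127, with the most reads, thus had the lowest predicted energy per base and Mir432, with none, the highest. The order of the others did not follow their reads, since Mir433 had more reads than Mir431, Mir136 and Mir434 and a higher energy per base than each. The hairpin lengths are those listed and include flanking bases in unequal amounts.

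Mir136 shares its place with a hairpin of the other strand. Mir3071 (109595318 to 109595397, minus strand) lies on the Rtl1 strand and covers all 62 bases of Mir136. The pair is shown because a count without strand cannot divide their reads. Capitals mark the mature forms.
Mir136 hairpin: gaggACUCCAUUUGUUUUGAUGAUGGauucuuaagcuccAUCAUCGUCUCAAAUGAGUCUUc
Mir3071 hairpin: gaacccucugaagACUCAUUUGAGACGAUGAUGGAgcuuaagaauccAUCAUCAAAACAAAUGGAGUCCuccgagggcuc
With strand, the 535 and 268 reads were all on the Mir136 strand, and Mir3071 had 0 reads in both animals. In the unstranded column both genes stood at 0. Reads on the strand opposite each of the 6 genes, the strand of Rtl1, numbered 0 in both animals, which allows up to 3 reads per gene and library. No short reads of the Rtl1 strand were thus counted at these places. Only short RNA was sequenced, so these counts do not measure the level or the cutting of the Rtl1 messenger RNA.

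The Dlk1-Dio3 region was taken as all microRNA genes from the start of Meg3 to the end of Mirg, both long noncoding RNA genes of the maternal chromosome. It held 22.1% of counted reads in animal 1 and 22.3% in animal 2, on 59 plus-strand genes. The 6 anti-Rtl1 genes held 31.2% of the region's reads in animal 1 (95% interval 31.1 to 31.3). In animal 2 the share was 29.8% (29.7 to 29.9), and the mean was 30.5% ± 0.992 (SD, n = 2). Of the other 53 plus-strand genes 46 were detected, and of the 7 minus-strand genes 0 were. From the start of Meg3 to Rtl1, genes within Meg3 included, 9 genes held 4.56% ± 0.286 of counted reads (SD, n = 2). They were led by Mir770 (36751 and 41938 CPM) and Mir337 (2793 and 2577 CPM). Between Rtl1 and Mirg, 30 genes held 7.11% ± 0.193, led by Mir487b (34100 and 41317 CPM) and Mir411 (6159 and 5990 CPM). Within Mirg, 14 genes held 3.77% ± 0.127, led by Mir382 (13903 and 17751 CPM) and Mir541 (6866 and 6380 CPM). Mir127 was above every other gene of the region in both animals, and Mir770 came next in both. The other plus-strand genes of the region that were tested had a median level of 654 CPM.

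**Figure D3:**
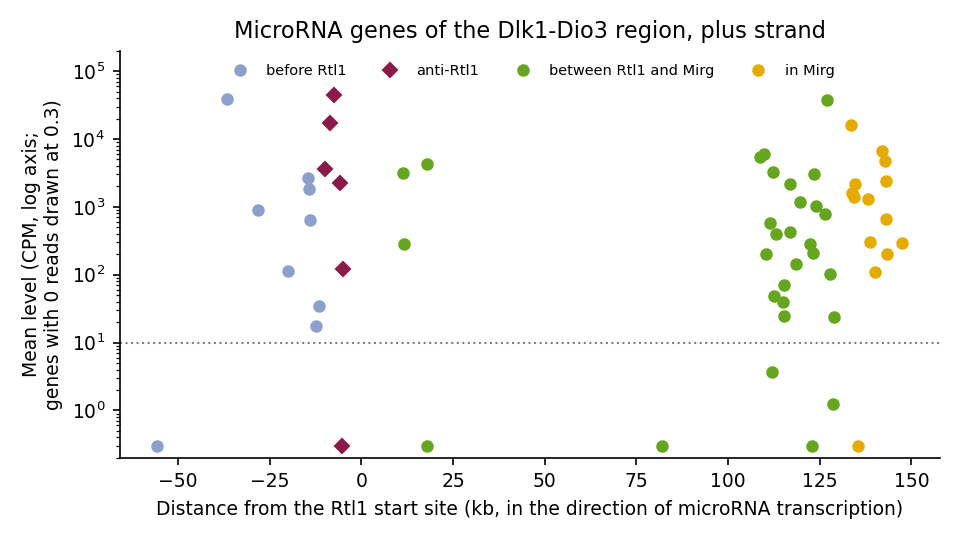
Mean level over both animals (CPM, log axis, n = 2) of the 59 plus-strand microRNA genes of the Dlk1-Dio3 region by distance in kb from the start site of Rtl1, counted in the direction in which the microRNAs are transcribed. Genes with 0 reads are drawn at 0.3 CPM, and the dotted line marks 10 CPM. The anti-Rtl1 genes (diamonds) hold both the highest level of the region, 44399 CPM for Mir127, and a gene with 0 reads.

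The gene nearest to each member in level over both libraries was found by the Euclidean distance of log2(CPM + 0.5), a measure that rests on 2 samples only. Mir127 was nearest to Mir770 of the same region (distance 0.30). Mir434 was nearest to Mir485, also of the region (0.081; 2511 and 1786 CPM). Mir433 was nearest to Mir652 of the X chromosome (0.098; 16162 and 18222 CPM), and Mir431 to Mir30a of chromosome 1 (0.12; 3834 and 3301 CPM). Mir136 was nearest to Mir1298 of the X chromosome (0.22; 162 and 109 CPM). Of the 5 detected genes, 2 had their nearest gene within the region, which supplied 47 of the 526 other tested genes. The distance follows mainly the level of a gene. The region's share among genes of like level was not computed, so nothing is read from this count.

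The only contrast in the files is animal 1 against animal 2, which compares 2 libraries and no conditions. After TMM scaling, a factor that equalises the bulk of genes between libraries, 51.6% of 531 tested genes differed beyond counting noise (exact conditional binomial test, two-sided, Benjamini-Hochberg adjusted p under 0.05). The share was 26.9% for genes higher in animal 1 and 24.7% for genes higher in animal 2. All 5 tested anti-Rtl1 genes passed, 2 higher in animal 1 and 3 in animal 2, with differences of at most 1.30-fold. High counts make small differences pass this test: of the 102 genes with a mean of at least 1000 CPM, 92 passed.

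Mir434 was higher in animal 1, with a log2 ratio of animal 1 over animal 2 of 0.38 (exact 95% interval 0.33 to 0.43; exact binomial test, adjusted p = 1.9e-50). Mir136 was also higher in animal 1, with a log2 ratio of 0.24 (0.032 to 0.46; exact binomial test, adjusted p = 0.0465). With DESeq2 size factors the Mir136 call was lost, at a log2 ratio of 0.19. Mir433 was higher in animal 2 at a log2 ratio of -0.24 (-0.26 to -0.22; exact binomial test, adjusted p = 2.7e-160). Mir431 (-0.15, interval -0.19 to -0.11) and Mir127 (-0.15, interval -0.16 to -0.14) shared that direction (exact binomial test, adjusted p = 7.9e-14 and 1.3e-156). With library totals in place of TMM, Mir431 and Mir127 were higher in animal 1, at log2 ratios of 0.054 and 0.055. That scaling shifted the log2 ratio of every tested gene by 0.20, and so the median from 0.045 to 0.25. Mir431 and Mir127 therefore stayed below that median by construction. Mir433 kept its direction and Mir434 and Mir136 kept theirs under TMM, library totals and DESeq2 size factors.

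**Figure D4:**
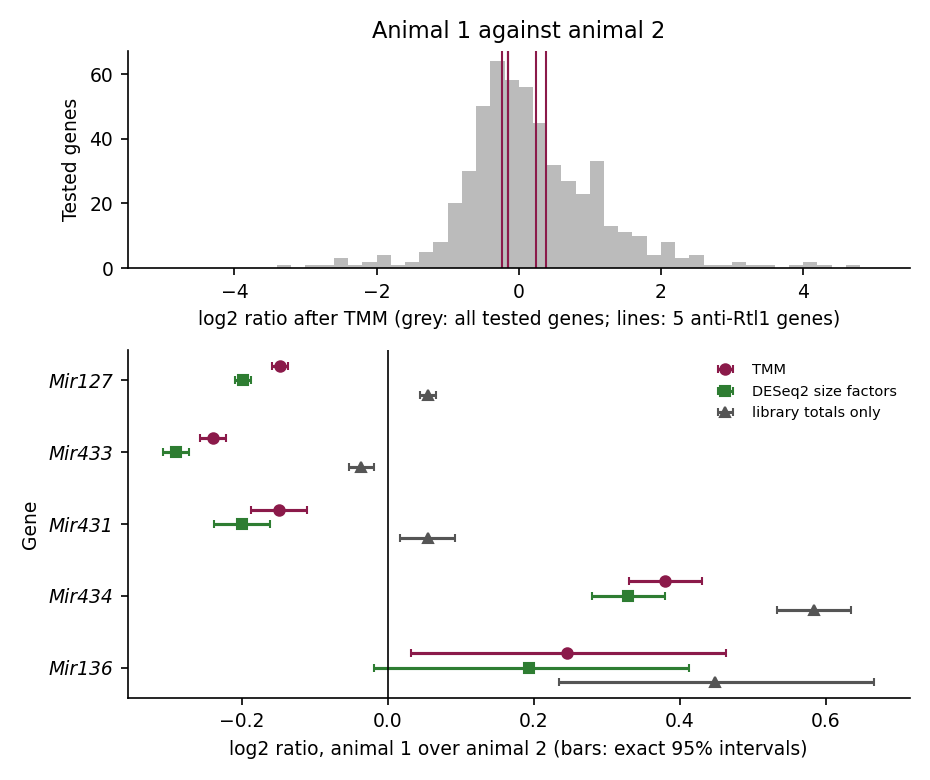
Upper panel, log2 ratios of animal 1 over animal 2 after TMM for the 531 tested genes (grey bars, number of genes) with lines at the 5 tested anti-Rtl1 genes. Lower panel, the same ratio for each of the 5 genes under TMM, DESeq2 size factors and library totals, with exact 95% intervals for counting error. Mir434 and Mir136 lie to the right of the other 3 genes. A change of scaling shifts all genes alike and cannot alter this order.

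The median absolute log2 ratio was 0.24 over the 5 tested members, 0.51 over all 531 genes and 0.39 over the 102 genes of at least 1000 CPM. All tested genes had a median level of 28.9 CPM, and the tested members one of 3601 CPM. Of all tested genes, 59.9% lay farther from 0 than Mir434, 73.6% than Mir136, 74.2% than Mir433, 83.8% than Mir431 and 84.0% than Mir127. In CPM, the coefficient of variation between the animals was 1.79% for Mir433, 2.66% for Mir431, 2.69% for Mir127, 21.8% for Mir136 and 28.2% for Mir434, with a median of 24.6% over tested genes and 13.6% over genes of at least 1000 CPM. In CPM, which takes no TMM factor, Mir434 thus varied more than the median of either set, and Mir433, Mir431 and Mir127 less. After TMM this did not hold for Mir434. Its log2 ratio of 0.38 lay below the median absolute log2 ratio of both sets (0.51 and 0.39). Counting error alone gives 0.297% for Mir127 and 1.47% for Mir434 in animal 2, and 6.11% for Mir136. Of the other plus-strand genes of the region 47 were tested, of which 21 were higher in animal 1, 18 were higher in animal 2 and 8 did not pass. Their median absolute log2 ratio was 0.48, and 10 of them passed the test with a difference of at least 2-fold, against 0 of the 5 members. Such differences were found for 90 of all 531 tested genes and for 8 of the 102 genes of at least 1000 CPM. With 5 members, a count of 0 says little. The endothelial marker Mir126a also moved between the animals, from 28913 CPM in animal 1 to 8265 in animal 2. The neuronal marker sum stood at 40747 and 41568 CPM, but the sum covers unequal genes and takes no TMM factor. After TMM the log2 ratios of the detected neuronal markers were -0.37 (Mir128-1), -0.31 (Mir128-2) and -0.30 (Mir132). Those of Mir138-2, Mir138-1 and Mir137 were -0.034, 0.0097 and 0.031. In CPM the smooth muscle and pericyte, oligodendrocyte, blood and microglial, and Mir9 sums were higher in animal 2. Within the oligodendrocyte set Mir219a-1 went the other way (20.2 and 1.54 CPM). So did Mir9-1 (34.4 and 26.1 CPM) and Mir9-2 (3.94 and 2.69 CPM) within the Mir9 set. Erythroid and choroid plexus values were lower in animal 2. The choroid plexus value is Mir204 alone, whose log2 ratio after TMM was 7.1e-05. The part of cell mixture in the differences of the anti-Rtl1 genes was not tested.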

How the data were processed

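The authors deposited whole-number read counts per microRNA gene, 1 table per library, made on build mm10 with GENCODE M21 per the notes beside the tables, the aligner and counter being not given in the sources used here. Own-strand counts were used, and the 4 rows of unmapped, multi-position, no-gene and ambiguous reads did not enter library sizes or tests. All 2202 gene IDs matched M21, whose coordinates, transcripts and RefSeq microRNA sequences (GRCm38.p6) were used on the same build. Counts were turned into CPM and percentages, and a count of 0 was taken to allow 3 counts. TMM factors (1.07 and 0.932) came from edgeR 4.0.16 in R 4.3.3 on 531 genes with at least 10 counts over both libraries. Each gene was compared by an exact conditional binomial test given the effective library sizes, with 0.5 added to counts for log2 ratios. DESeq2 1.42.0 size factors were an alternative. No replicated test is possible with 1 group of 2 animals. In simulated counts with counting noise only, tested on 519 genes, the test called 48.2% of genes changed 1.5-fold, 95.7% of those changed 5-fold and 0.932% of unchanged genes. Genes named were the members, the 2 highest genes of each stretch of the region, the nearest gene of each member, genes overlapping a member or sharing a seed, and marker genes of cell types from a fixed list. Members, lists and tests were chosen with earlier results of these data known. Python 3.11.15 with scipy 1.17.1 and RNAfold 2.7.2 were used.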

Additional observations from a re-analysis of the deposited data

How the results depend on the processing

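With unstranded counts, which drop reads of overlapping genes, the members' share of counted reads was 7.27% and their share of the region's reads 32.1%, Mir136 had 0 reads and 1 tested member was higher in animal 1. Over all reads of a library, unmapped ones included, the members held 2.17%. With library totals only, 4 members passed as higher in animal 1 and 1 as higher in animal 2, and the log2 ratios of Mir431 and Mir127 turned to 0.054 and 0.055. With DESeq2 size factors 1 member was higher in animal 1. The other counts of members and of all genes that differed stayed within 1.5 times under the scalings, filters (1 and 100 counts) and strand column tried, as did the 5 detected members at 1 and 100 CPM. Without replicate 1 or replicate 2 the share of counted reads ran from 6.65 to 6.88% and that of the region from 29.8 to 31.2%, each being the value of the remaining animal with no test. No paired analysis was possible because the labels give a single group. Depth limits Mir136, with 268 reads in animal 2, and Mir432, with none.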
